A study of Homo sapiens with 18 samples.

Results

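Untreated cells of 2 human lung cancer lines were compared, H460 against ABC-1. H460 is labelled a large cell lung carcinoma and ABC-1 a lung adenocarcinoma, and the series calls H460 NRF2-activated and ABC-1 wildtype. The comparison used 6 of the 18 RNA sequencing libraries, 3 of H460 and 3 of ABC-1, all taken after 24 h in DMSO, the solvent of the p300 and CBP bromodomain inhibitor CCS1477 that the other libraries of both lines received. They were chosen by cell line and treatment alone. Each group is 1 line, so whatever else differed between them, such as how deeply they were sequenced or the table they were deposited in, cannot be told apart from the line. Whether the 3 replicates came from separate cultures is not in the labels. The p-values therefore rest on the spread of these libraries alone, and that spread may be technical.

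NRF2, encoded by NFE2L2, switches on the genes that protect cells from oxidants. KEAP1 binds it and hands it to a CUL3 ubiquitin ligase for degradation. When cysteines of KEAP1 are oxidised, or KEAP1 is lost, NRF2 accumulates and pairs with a small MAF protein. The pair binds antioxidant response elements beside genes for detoxification, glutathione, thioredoxin, iron storage and NADPH supply. Lung cancers often activate it by mutation of KEAP1 or NFE2L2, and H460 is known to carry mutations of KEAP1 and STK11.

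Reads recovered from the deposited values came to 26652284 to 28263053 per library in H460 and 14483979 to 15698039 in ABC-1. The deposited tables were scaled apart, so the reads of the 14529 gene rows found in both were scaled together and given as CPM, reads per 1000000. Replicates were close: the median SD of a gene was 4.99% of its mean in H460 and 5.69% in ABC-1. At 1 CPM, counting alone gave an error of about 20.4% in an H460 library and 27.3% in an ABC-1 library. One library stood apart. In DMSO replicate 1 of H460, 51 genes above 3 CPM were at over 10 times their level in both other H460 replicates, against 1 gene each in replicates 2 and 3 and 4, 4 and 5 genes in the ABC-1 libraries. They included IGF2 at 333 CPM, the imprinted H19 at 69.6 CPM and DLK1 at 60.3 CPM, and RGS5 at 56.5 CPM. These values are over the gene rows of the H460 table. These 4 were at no more than 1.93 CPM in any CCS1477 library of H460, and the cause was not tested. Values of genes of this set are given below with and without that library. RNAs that carry no long poly(A) tail also differed between the lines, named here after their values were seen. MT-RNR2, of the mitochondrial ribosome, stood at 1371, 1289 and 889.8 CPM in H460, against 0.954, 1.10 and 29.3 CPM in ABC-1, and RN7SL2, of the signal recognition particle, at 31504, 31591 and 27959 CPM in H460, against 5602, 5345 and 5889.9 CPM in ABC-1. When genes were sorted by exonic length into 5 groups, the median log2 difference was 0.16 in the shortest and -0.11 in the longest. The part of RNA selection in the results was not tested.

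Of 13169 genes tested, 11201 (85.1%) differed between the lines at an adjusted p of 0.05, with 5723 higher in H460 (43.5%) and 5478 lower (41.6%). By more than 2-fold, under limma's test against that size, 3914 (29.7%) differed. That rule is used from here on and called past 2-fold. It held 1927 genes higher in H460 (14.6%) and 1987 lower (15.1%). Differences over 8-fold were seen in 407 genes higher and 481 lower, and over 32-fold in 119 higher and 145 lower. The libraries of the lines did not overlap for 11345 genes (86.1%). The median log2 difference over all genes was 0.02, with quartiles at -0.77 and 0.77, so a list of genes is read against a centre near 0 and against 14.6% and 15.1% called. Log2 differences are of CPM + 0.5, H460 minus ABC-1, with the standard error of the fit, and adjusted p is of the test against 2-fold unless stated. Scaling by library totals in place of trimmed means moves every log2 difference by -0.14, with 1643 genes past 2-fold higher and 2259 lower. Where a mean is given without its SD, that SD was at most 17.6% of the mean in the line with more, n = 3 libraries each.

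**Figure D1:**
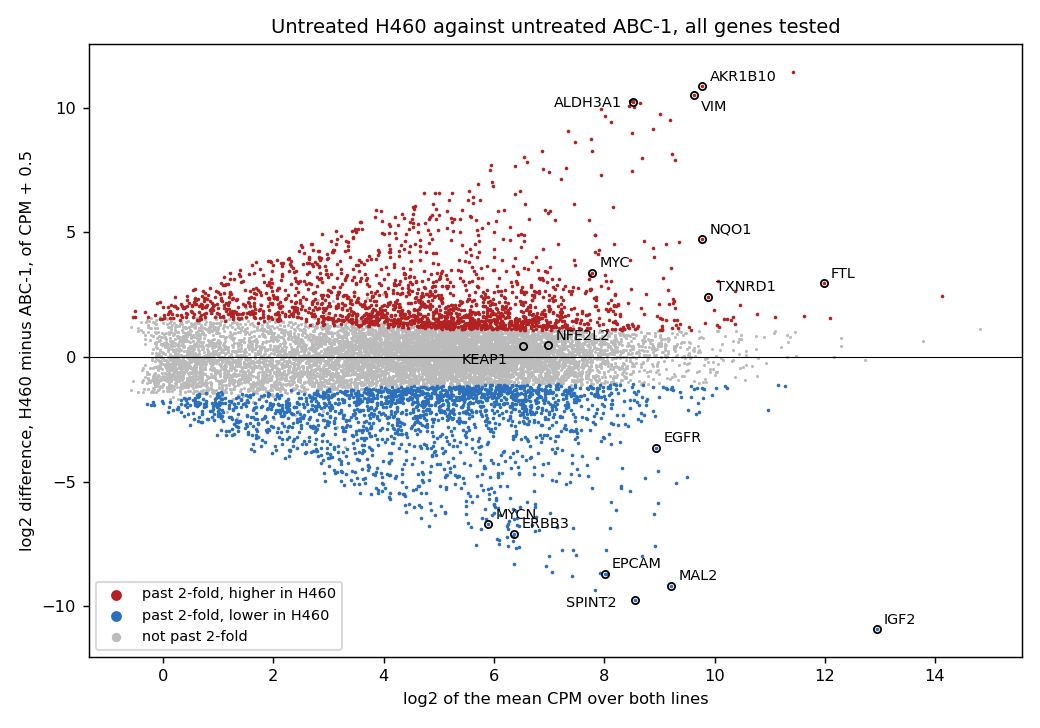
Log2 difference of every gene tested (H460 minus ABC-1, of CPM + 0.5) against the log2 of its mean level over both lines, 1 point a gene, for 3 H460 and 3 ABC-1 DMSO libraries. Red and blue points are the 1927 genes higher and the 1987 genes lower past 2-fold, and circled genes are named in the text. The antioxidant genes AKR1B10 and ALDH3A1 stand at the top, with NQO1 well below them at 4.74. The epithelial genes SPINT2, MAL2 and EPCAM stand near the bottom.

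The element that NRF2 and its small MAF partner bind was looked for in promoters. Its core TGACNNNGC was searched on both strands of RefSeq promoter windows on GRCh38.p14, which reach from 250 bases before to 50 bases after each annotated start. It was found in 13.3% of all 35116 windows and in 27 of the 104 windows (26%) that matched 76 of the 97 genes of the NRF2 target lists. Of genes past 2-fold, 14.7% of the windows of those higher in H460 held it, 13.6% of the windows of those lower, and 14.8% of those of the other genes tested. Of the 30 matches in the NRF2 lists, 4 overlapped TGACTCA, the element of AP-1. A match is a description of the letters and not of binding. The windows with a match of 4 genes past 2-fold higher in H460 are printed below 5′ to 3′ on the strand of the gene, with each match in capitals. ME1 (malic enzyme, chr6:83431002-83431301, minus strand) has 1 match on each strand. GCLM (a subunit of the enzyme that makes glutathione's precursor, chr1:93909381-93909680, minus strand) has 1. The 2 windows of TXNRD1 that held a match (thioredoxin reductase, chr12:104215529-104215828, plus strand and chr12:104286782-104287081, plus strand) have 2 and 1. CBR1 (a carbonyl reductase, chr21:36069774-36070073, plus strand) has 1.
ME1: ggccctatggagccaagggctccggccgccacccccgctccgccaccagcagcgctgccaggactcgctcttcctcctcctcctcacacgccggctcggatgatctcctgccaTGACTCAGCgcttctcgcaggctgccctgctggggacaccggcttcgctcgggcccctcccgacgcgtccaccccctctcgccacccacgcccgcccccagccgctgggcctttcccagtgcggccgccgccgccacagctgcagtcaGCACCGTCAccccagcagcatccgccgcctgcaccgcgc
GCLM: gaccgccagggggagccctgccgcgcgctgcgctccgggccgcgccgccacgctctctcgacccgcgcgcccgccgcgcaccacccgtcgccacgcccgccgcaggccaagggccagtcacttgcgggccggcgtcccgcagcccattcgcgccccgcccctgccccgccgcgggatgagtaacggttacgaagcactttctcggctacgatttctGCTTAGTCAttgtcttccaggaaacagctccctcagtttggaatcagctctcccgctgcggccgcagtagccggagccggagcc
TXNRD1, upstream start: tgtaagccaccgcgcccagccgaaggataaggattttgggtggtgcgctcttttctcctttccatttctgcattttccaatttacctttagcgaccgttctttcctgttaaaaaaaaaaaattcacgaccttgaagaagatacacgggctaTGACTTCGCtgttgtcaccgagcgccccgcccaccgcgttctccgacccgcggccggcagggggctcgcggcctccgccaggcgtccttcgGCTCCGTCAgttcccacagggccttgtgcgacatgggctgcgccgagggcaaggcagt
TXNRD1, downstream start: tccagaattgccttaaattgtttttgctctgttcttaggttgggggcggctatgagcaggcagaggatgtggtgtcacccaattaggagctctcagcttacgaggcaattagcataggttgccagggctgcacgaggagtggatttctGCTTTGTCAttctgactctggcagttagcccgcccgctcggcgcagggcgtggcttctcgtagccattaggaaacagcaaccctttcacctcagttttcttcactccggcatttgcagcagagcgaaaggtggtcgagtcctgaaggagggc
CBR1: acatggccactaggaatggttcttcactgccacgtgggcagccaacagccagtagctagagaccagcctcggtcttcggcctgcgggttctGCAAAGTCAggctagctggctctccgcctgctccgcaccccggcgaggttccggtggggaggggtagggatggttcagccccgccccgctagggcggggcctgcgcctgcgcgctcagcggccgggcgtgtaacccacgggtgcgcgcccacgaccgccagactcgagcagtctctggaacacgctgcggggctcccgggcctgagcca

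NRF2 targets were far higher in H460. Over 8 lists of targets, 48 of 77 tested genes were past 2-fold higher, 3 were past 2-fold lower and 26 were neither, with a median log2 difference of 1.89. Another 12 of the 97 listed genes had a row in the H460 table and none in the ABC-1 table used here, 1 the other way round, and 7 had none in either. The counts were the same without DMSO replicate 1 of H460.

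The aldo-keto reductases and the enzymes that act on quinones and aldehydes differed most. AKR1B10, a reductase of aldehydes and retinal (ENSG00000198074, chr7:134527592-134541408, plus strand), was at 1713, 1745 and 1813 CPM in H460, against 0.409, 0.412 and 0.521 CPM in ABC-1 (log2 difference 10.86 ± 0.06, adjusted p = 1.64e-12). ALDH3A1, an aldehyde dehydrogenase, was at 724, 743 and 751 CPM in H460, against 0.204, 0.137 and 0 CPM in ABC-1 (log2 difference 10.25 ± 0.12, adjusted p = 2.21e-11). NQO1, which reduces quinones by a pair of electrons, was at 1623, 1687 and 1749 CPM in H460, against 63.2, 66.6 and 58.9 CPM in ABC-1 (log2 difference 4.74 ± 0.05, adjusted p = 2.04e-11). For each of the 3 the lowest H460 library stood above the highest ABC-1 library, and AKR1B10 and ALDH3A1 were near the floor of detection in ABC-1. Libraries of the lines were separate, in either direction, for 86.1% of all genes tested. All 3 tested aldo-keto reductases and 9 of 10 tested quinone, carbonyl and aldehyde enzymes were past 2-fold higher. AKR1C2 averaged 273 ± 7.53 CPM in H460 and 11.4 ± 0.506 CPM in ABC-1 (SD, n = 3 each, throughout). AKR1C3 averaged 447 ± 12.7 CPM in H460 and 24.6 ± 0.609 CPM in ABC-1. The AKR1C genes are close copies of each other, so reads may be split between them. The epoxide hydrolase EPHX1 averaged 416 CPM in H460 and 8.71 CPM in ABC-1. UGDH, which makes the sugar acid used to conjugate drugs, averaged 898 CPM in H460 and 55.0 CPM in ABC-1. KYNU, of tryptophan breakdown, averaged 269 CPM in H460 and 5.53 CPM in ABC-1, and ALDH1A1, a dehydrogenase of retinal, 72.4 CPM in H460 and 0.425 CPM in ABC-1. The one tested member of this list that was not past 2-fold was CYP4F3, a fatty acid hydroxylase, at -0.61 ± 0.16. AKR1B1 (261 ± 9.28 CPM), AKR1C1 (145 ± 7.52 CPM), the reductase PTGR1 (251 ± 4.47 CPM) and CYP4F11 (108 ± 5.11 CPM) had a row for H460 only and were not compared.

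Export pumps split. ABCC2, which carries conjugates out of cells, was at 281, 302 and 299.9 CPM in H460, against 1.77, 1.85 and 1.19 CPM in ABC-1 (log2 difference 7.14 ± 0.12, adjusted p = 2.26e-10). The other 3 past 2-fold higher were ABCB6, a porphyrin carrier (59.0, 62.4 and 60.3 CPM in H460, against 0, 0.549 and 0 CPM in ABC-1), ABCG2 (61.5 CPM in H460 and 0.549 CPM in ABC-1) and ABCC1 (181 CPM in H460 and 32.0 CPM in ABC-1). ABCC5, a pump for cyclic nucleotides and organic anions, went the other way at 28.1, 25.6 and 28.0 CPM in H460, against 612, 605 and 621 CPM in ABC-1 (log2 difference -4.47 ± 0.04, adjusted p = 1.76e-11). No library of one line overlapped with the other line for ABCC2 or ABCC5, as for 86.1% of all genes tested. ABCC4 had a log2 difference of 0.74 ± 0.07, not past 2-fold.

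Of 17 tested glutathione genes, 12 were past 2-fold higher and 1 lower. SLC7A11, the cystine carrier that feeds glutathione synthesis, was at 1083, 1102 and 1096 CPM in H460, against 90.8, 90.1 and 90.9 CPM in ABC-1 (log2 difference 3.59 ± 0.02, adjusted p = 4.71e-12). Its heavy chain SLC3A2 averaged 298 CPM in H460 and 118 CPM in ABC-1. The 2 subunits of glutamate-cysteine ligase, the rate-limiting enzyme, were both higher: GCLM at 2.70 ± 0.03 and the catalytic GCLC at 1.57 ± 0.05. GSS, which adds glycine, was at 1.53 ± 0.05, and GSR, which regenerates glutathione, averaged 499 CPM in H460 and 89.4 CPM in ABC-1. The glutaredoxin GLRX averaged 96.8 CPM in H460 and 3.74 CPM in ABC-1 and the transferase GSTM3 43.8 CPM in H460 and 0.540 CPM in ABC-1. GPX4, the peroxidase that protects membrane lipids, was the one member past 2-fold lower, at 62.6, 54.9 and 59.6 CPM in H460, against 155, 164 and 157 CPM in ABC-1 (log2 difference -1.42 ± 0.05, adjusted p = 5.63e-05). The transferases GSTP1 (-0.55 ± 0.03) and MGST1 (0.55 ± 0.03) differed by less than 2-fold and in opposite directions. GSTM1 (74.7 ± 3.52 CPM) and GSTM4 (34.6 ± 2.50 CPM) had a row for H460 only; genes of this family are near copies.

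In the thioredoxin list 5 of 12 were past 2-fold higher and none lower. TXNRD1 was at 1571, 1603 and 1628 CPM in H460, against 305, 298 and 291 CPM in ABC-1 (log2 difference 2.42 ± 0.03, adjusted p = 2.36e-10). Thioredoxin itself, TXN, averaged 989 CPM in H460 and 155 CPM in ABC-1, and the sulfiredoxin SRXN1 945 CPM in H460 and 213 CPM in ABC-1. The peroxiredoxin PRDX1 averaged 1780.0 CPM in H460 and 614 CPM in ABC-1, and the mitochondrial PRDX3 373 CPM in H460 and 90.2 CPM in ABC-1. PRDX6 was -0.10 ± 0.03 and the mitochondrial reductase TXNRD2 -0.27 ± 0.08, neither past 2-fold.

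Of 8 iron and heme genes 5 were past 2-fold higher and 1 lower, and of 9 genes of NADPH supply 4 were higher and none lower. The ferritin chains FTL and FTH1, which store iron, had log2 differences of 2.97 ± 0.03 and 2.65 ± 0.03. FTL was at 7303, 7144 and 7047 CPM in H460, against 941, 891 and 918 CPM in ABC-1. HMOX1, which opens the heme ring, averaged 122 ± 2.42 CPM in H460 and 5.61 ± 0.542 CPM in ABC-1 (log2 difference 4.33 ± 0.07, adjusted p = 3.87e-10). SLC40A1, ferroportin, the iron exporter, was lower at 8.16, 8.92 and 7.37 CPM in H460, against 99.5, 103 and 99.6 CPM in ABC-1 (log2 difference -3.55 ± 0.07, adjusted p = 1.99e-09). Both ferritin chains were higher and the exporter lower in every H460 library than in any ABC-1 library. Such a gap, in either direction, was seen for 86.1% of all genes tested. Among NADPH genes ME1 was at 347, 336 and 359 CPM in H460, against 4.43, 3.91 and 4.76 CPM in ABC-1 (log2 difference 6.16 ± 0.07, adjusted p = 2.47e-11). PGD, an oxidative step of the pentose phosphate pathway, had 2.12 ± 0.02, and IDH1 1.84 ± 0.03. Not past 2-fold were the pentose phosphate enzymes TKT (0.57 ± 0.06), TALDO1 (0.14 ± 0.03), RPIA (-0.20 ± 0.05) and PGLS (-0.45 ± 0.06). Of the other targets, SQSTM1, the autophagy adaptor that also binds KEAP1, averaged 1917 CPM in H460 and 228 CPM in ABC-1. OSGIN1, a growth inhibitor, averaged 97.4 CPM in H460 and 5.62 CPM in ABC-1 and SLC6A6, the taurine carrier, 159.9 CPM in H460 and 27.1 CPM in ABC-1. UCHL1, a ubiquitin hydrolase better known from neurons, had 34296 reads over the H460 libraries and 0 over the ABC-1 libraries, at least 6997-fold higher when a floor of 3 reads over the group is set for ABC-1.

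**Figure D2:**
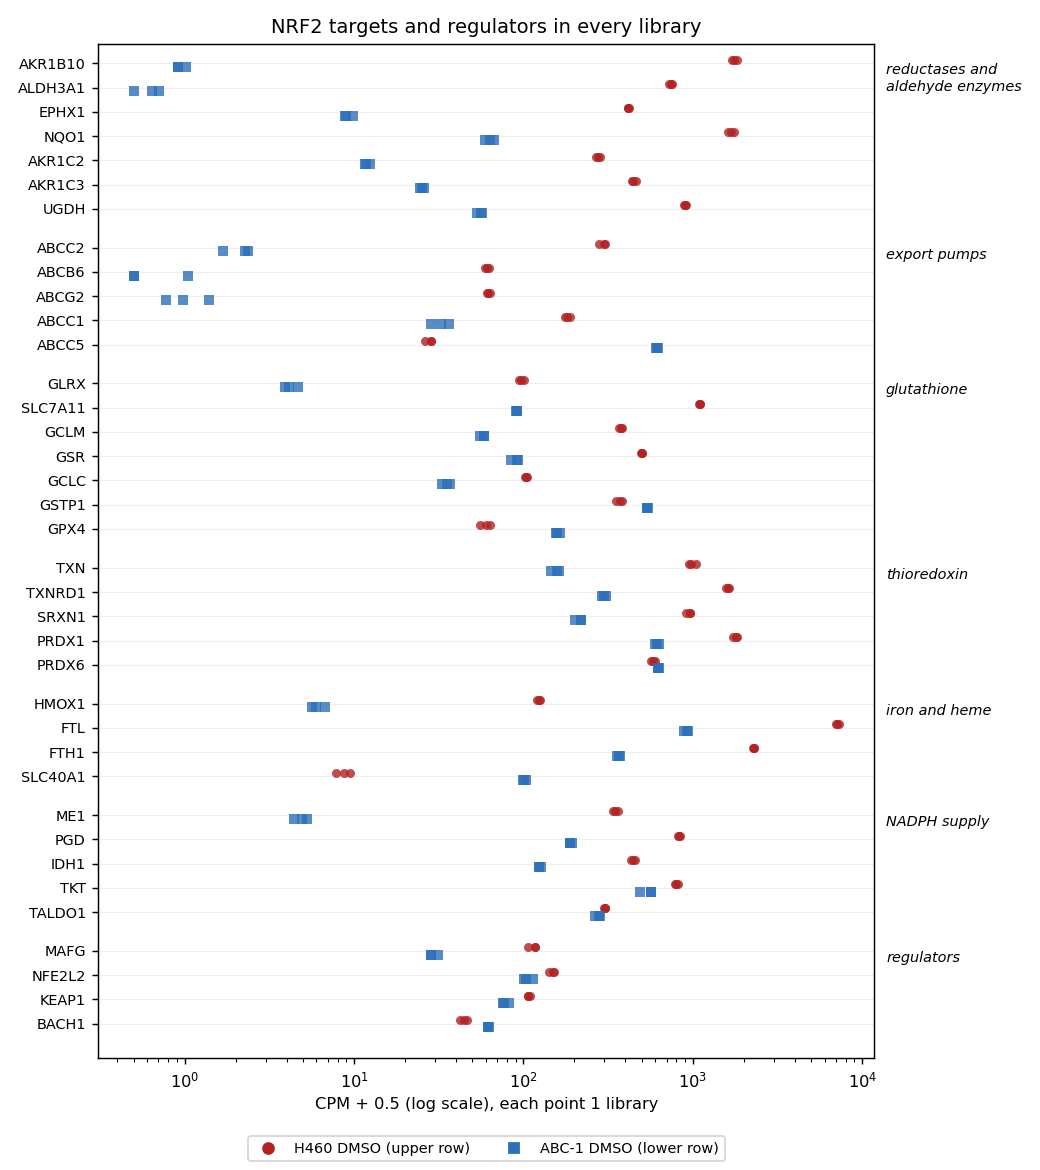
CPM + 0.5 on a log axis of 33 NRF2 targets and 4 regulators in each DMSO library, with H460 as circles on the upper row and ABC-1 as squares on the lower row of each gene. Most targets are separated by a wide gap with H460 to the right, while ABCC5, GPX4, GSTP1 and SLC40A1 have H460 to the left and NFE2L2 and KEAP1 differ little.

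The regulators themselves differed little at the RNA level. NFE2L2 was at 149, 141 and 151 CPM in H460, against 103, 114 and 100.3 CPM in ABC-1 (log2 difference 0.47 ± 0.05, adjusted p = 1.70e-05 against no difference). KEAP1 was at 106, 105 and 109 CPM in H460, against 82.0, 75.9 and 75.1 CPM in ABC-1 (log2 difference 0.45 ± 0.04, adjusted p = 4.68e-06 against no difference). The libraries of the lines did not overlap for either, as for 86.1% of all genes tested, and neither was past 2-fold. CUL3 was at 0.19 ± 0.03 and BACH1, a repressor that competes for the same elements, at -0.48 ± 0.04. MAFG, a small MAF partner, was the 1 of 10 regulators past 2-fold, at 106, 116 and 116 CPM in H460, against 31.0, 27.8 and 28.1 CPM in ABC-1 (log2 difference 1.94 ± 0.06, adjusted p = 4.34e-07). MAFK, another partner, was at 0.95 ± 0.05. The coactivators that CCS1477 binds differed too. EP300 averaged 95.8 ± 1.43 CPM in H460 and 241 ± 4.41 CPM in ABC-1 (log2 difference -1.32 ± 0.03, adjusted p = 6.26e-06). CREBBP averaged 111 ± 5.42 CPM in H460 and 171 ± 0.877 CPM in ABC-1 (log2 difference -0.63 ± 0.04, adjusted p = 2.91e-07 against no difference). EP300 was the 1 of 15 tested acetyltransferase and bromodomain genes past 2-fold, and it was lower in H460.

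Epithelial genes formed the largest block that was lower in H460. Of 26 tested genes of adhesion and junctions 20 were past 2-fold lower and none higher, with a median log2 difference of -5.41. EPCAM, the surface adhesion protein that marks carcinoma cells, was at 1.11, 0.476 and 0.749 CPM in H460, against 508, 537 and 500.4 CPM in ABC-1 (log2 difference -8.68 ± 0.15, adjusted p = 2.92e-10). The membrane protease inhibitor SPINT2 was at 0.976, 0.173 and 0.208 CPM in H460, against 743, 764 and 755 CPM in ABC-1 (log2 difference -9.73 ± 0.26, adjusted p = 3.51e-09). Its relative SPINT1 was at 1.82, 0.520 and 0.375 CPM in H460, against 522, 528 and 541 CPM in ABC-1. MAL2, of traffic to the apical membrane, averaged 1.56 CPM in H460 and 1188 CPM in ABC-1. These 4 genes were below 3 CPM in every H460 library and above 400 CPM in every ABC-1 library. The splicing regulators of epithelia ESRP1 (-7.18 ± 0.28) and ESRP2 (-7.28 ± 0.38), the tight junction proteins OCLN (-6.51 ± 0.08), CLDN3 (-6.08 ± 0.08), CLDN7 (-6.00 ± 0.09) and CLDN4 (-3.22 ± 0.03), and the desmosomal plakin DSP (-5.83 ± 0.06) were lower too. Not all junction genes were: DSG2 had 0.07 ± 0.04, TJP1 -0.45 ± 0.03 and CLDN1 -0.47 ± 0.04. Another 10 members had a row for ABC-1 only, among them E-cadherin, CDH1, at 262 ± 5.32 CPM and the protease ST14 at 538 ± 6.68 CPM. So did the epithelial transcription factors GRHL2 at 223 ± 2.98 CPM, ELF3 at 123 ± 5.17 CPM and OVOL1 at 33.0 ± 3.19 CPM.

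Mesenchymal genes went the other way, with 12 of 18 tested past 2-fold higher, 1 lower and a median of 2.36. VIM, the intermediate filament vimentin, which antisense genes overlap, was at 1553, 1594 and 1583 CPM in H460, against 1.16, 0 and 0.967 CPM in ABC-1 (log2 difference 10.53 ± 0.38, adjusted p = 2.83e-08). CDH11, a cadherin of mesenchymal cells, was at 700.0, 707 and 711 CPM in H460, against 0, 0.0687 and 0.149 CPM in ABC-1. Its 49176 reads against 3 give a ratio of CPM of 10042 (95% exact interval 3436 to 48696, counting error only). TGFBI, a matrix protein, averaged 722 CPM in H460 and 0.936 CPM in ABC-1. The repressors of epithelial genes ZEB1 (31.2 ± 3.18 CPM in H460 and 0.211 ± 0.0699 CPM in ABC-1), SNAI1 (7.84 CPM in H460 and 0.725 CPM in ABC-1) and SNAI2 (10.9 CPM in H460 and 2.11 CPM in ABC-1) were past 2-fold higher, and ZEB2 had a row for H460 only, at 31.5 ± 1.99 CPM. Other members were exceptions. N-cadherin, CDH2, averaged 2.20 CPM in H460 and 1.39 CPM in ABC-1 and was not past 2-fold. CALD1 was at -0.94 ± 0.07, and TAGLN, an actin-binding protein of smooth muscle, was past 2-fold lower at 0.355, 1.21 and 0.458 CPM in H460, against 11.3, 11.1 and 10.6 CPM in ABC-1. H460 also held the simple keratins of epithelia, KRT8 (1421 ± 2.96 CPM in H460 and 3109 ± 120.4 CPM in ABC-1), KRT18 (713 CPM in H460 and 1613 CPM in ABC-1) and KRT19 (811 CPM in H460 and 1125 CPM in ABC-1), of which KRT8 and KRT18 were past 2-fold lower.

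ZEB and SNAI proteins bind the E-box CAGGTG, and it was searched on both strands of the same windows. It was found in 20.6% of all windows and in 13 of 30 windows (43.3%) of the epithelial list, which matched 20 of its 37 genes. Among genes past 2-fold, 21.6% of the windows of those lower in H460 held it, 18% of those higher and 17.7% of the other genes tested. The window with the most matches in the list is that of CLDN7 (chr17:7262429-7262728, minus strand), which has 2 on the strand of the gene and 3 on the other and is printed with them in capitals.
CLDN7: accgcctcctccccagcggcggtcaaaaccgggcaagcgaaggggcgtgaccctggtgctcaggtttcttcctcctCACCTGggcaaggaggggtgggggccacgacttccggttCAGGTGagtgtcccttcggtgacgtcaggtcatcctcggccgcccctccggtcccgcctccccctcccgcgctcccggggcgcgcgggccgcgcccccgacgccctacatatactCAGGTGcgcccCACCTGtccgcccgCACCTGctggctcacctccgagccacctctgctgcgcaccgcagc

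**Figure D3:**
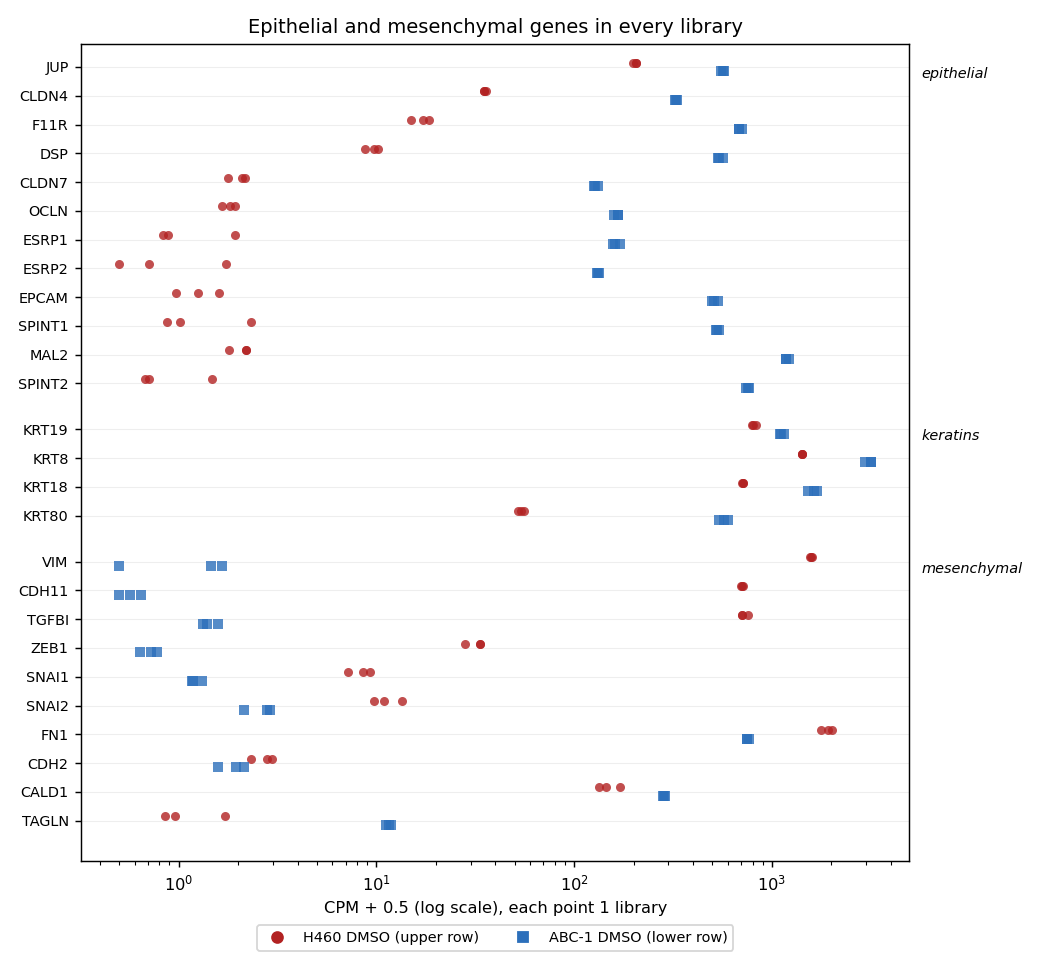
CPM + 0.5 on a log axis of 12 epithelial junction genes, 4 keratins and 10 mesenchymal genes in each DMSO library, with H460 as circles on the upper row and ABC-1 as squares on the lower row of each gene. H460 lies to the left for the epithelial genes and to the right for VIM, CDH11, TGFBI and ZEB1, and the lines lie close together for KRT19 and CDH2.

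The labelled tissue is lung. Of 32 alveolar and secretory genes, 26 had no row in either table, the surfactant genes and NAPSA among them, which gives no level for them. AGR2, a disulfide isomerase of secretory cells, averaged 570.3 ± 19.8 CPM in H460 and 489.9 ± 10.7 CPM in ABC-1 and was not past 2-fold. NKX2-1, the factor of lung lineage, was at 0.710, 0.0433 and 0.0832 CPM in H460, against 1.29, 1.24 and 1.79 CPM in ABC-1, low in every library. Of 9 tested lineage factors 6 were past 2-fold lower in H460, among them EHF (3.62 CPM in H460 and 117 CPM in ABC-1), KLF5 (48.0 CPM in H460 and 253 CPM in ABC-1), GATA6 (2.39 CPM in H460 and 13.3 CPM in ABC-1) and CEBPA (6.45 CPM in H460 and 48.5 CPM in ABC-1). FOXA1, a pioneer factor of endoderm, was higher (80.5 CPM in H460 and 29.6 CPM in ABC-1). EHF is one of the genes that were high in DMSO replicate 1 of H460, and its log2 difference was -6.80 ± 0.11, adjusted p = 1.36e-09 without it. SOX2 (160.3 ± 5.38 CPM) and ELF5 (59.6 ± 1.70 CPM) had a row for ABC-1 only and SOX9 (54.2 ± 2.49 CPM) for H460 only. The mucin MUC1 was past 2-fold lower in H460 (2.54 CPM in H460 and 106 CPM in ABC-1), and MUC16 had a row for ABC-1 only, at 249.8 ± 3.61 CPM. Of 9 tested neuronal and neuroendocrine genes 6 were past 2-fold higher in H460, including TUBB3 (212 CPM in H460 and 23.1 CPM in ABC-1) and SYT1 (16.3 CPM in H460 and 0.397 CPM in ABC-1). The neurofilament NEFL had a row for H460 only, at 334 ± 3.74 CPM. The defining factors NEUROD1 and INSM1 had no row in either table. TBXT, brachyury, a factor of the primitive streak and notochord, was at 793, 787 and 819 CPM in H460, against 0.204, 0.137 and 0.223 CPM in ABC-1 (log2 difference 10.19 ± 0.07, adjusted p = 2.39e-12). Of 12 immune markers 9 had no row in either table, PTPRC and CD3E among them. CD68, a lysosomal protein, averaged 17.1 CPM in H460 and 1.83 CPM in ABC-1. Of 12 fibroblast and endothelial markers 6 had no row in either table, PECAM1, CDH5 and DCN among them. COL1A1, the one tested, averaged 9.20 CPM in H460 and 8.09 CPM in ABC-1 and was not past 2-fold. The part of other cells in the result was not tested beyond these markers.

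Most growth factor receptors that were tested were lower in H460. Of 21 tested receptor tyrosine kinases 12 were past 2-fold lower and 2 higher, with a median of -2.28. Another 7 of the 38 listed had a row for H460 only and 3 for ABC-1 only, and these were not compared. EGFR was at 71.6, 75.2 and 73.1 CPM in H460, against 878, 947 and 914 CPM in ABC-1 (log2 difference -3.63 ± 0.03, adjusted p = 2.53e-11). ERBB3 averaged 0.715 ± 0.159 CPM in H460 and 164 ± 4.19 CPM in ABC-1. ERBB2 averaged 32.8 ± 2.52 CPM in H460 and 161 ± 6.14 CPM in ABC-1. FGFR2 (-5.20 ± 0.10), FGFR3 (-4.29 ± 0.12), EPHB2 (-6.51 ± 0.14), EPHB3 (-5.45 ± 0.42) and ROR1 (-3.74 ± 0.10) were lower as well. Without DMSO replicate 1 of H460 the log2 difference of EPHB3 was -6.06 ± 0.12, adjusted p = 3.44e-09. FGFR1 (21.6 CPM in H460 and 2.25 CPM in ABC-1) and AXL, a receptor often high in mesenchymal cells (9.89 CPM in H460 and 0.636 CPM in ABC-1), were the 2 higher ones. MET (-0.74 ± 0.03) and IGF1R (-0.99 ± 0.04) were not past 2-fold. Of the ligands, the EGF family members EPGN (138 CPM in H460 and 4.72 CPM in ABC-1) and EGF (20.1 CPM in H460 and 0.781 CPM in ABC-1) were past 2-fold higher and TGFA (0.531 CPM in H460 and 18.1 CPM in ABC-1) lower. NRG1 (40.4 ± 7.44 CPM) and FGF2 (121 ± 0.239 CPM) had a row for H460 only.

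IGF2, a fetal growth factor from an imprinted locus, was first among the 15 lowest genes and differed most between the H460 libraries. It was at 356, 0.476 and 1.04 CPM in H460, against 15069, 15396 and 16354 CPM in ABC-1 (log2 difference -10.91 ± 1.88, adjusted p = 0.00166). Without DMSO replicate 1 of H460 the difference was -13.64 ± 0.16, adjusted p = 1.55e-10. The row shares its locus with the readthrough gene INS-IGF2, so its reads may come from either. HMGA2, a chromatin protein of fetal cells, named after its values were seen, had the same shape at 33.4, 0.260 and 0.458 CPM in H460, against 336, 339 and 334 CPM in ABC-1.

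Genes that respond to ERK signalling divided into a higher and a lower set. Of 20 tested, 8 were past 2-fold higher in H460 and 5 lower, with a median of 0.57. The higher ones held the phosphatases DUSP4 (327 ± 4.43 CPM in H460 and 21.8 ± 1.05 CPM in ABC-1) and DUSP6 (35.6 ± 2.03 CPM in H460 and 4.71 ± 0.0964 CPM in ABC-1). They also held the factors ETV4 (153 CPM in H460 and 19.2 CPM in ABC-1) and ETV5 (69.5 CPM in H460 and 14.4 CPM in ABC-1), the AP-1 subunit FOSL1 (33.7 CPM in H460 and 0.350 CPM in ABC-1) and the feedback inhibitor SPRY4 (34.3 CPM in H460 and 2.12 CPM in ABC-1). The lower ones held its relatives SPRY1 (1.50 CPM in H460 and 50.9 CPM in ABC-1) and SPRY2 (6.56 CPM in H460 and 21.3 CPM in ABC-1), EGR1 (2.03 CPM in H460 and 23.1 CPM in ABC-1), PHLDA1 and EPHA2. ETV1 had a row for H460 only at 119 ± 2.88 CPM. Of 24 genes of the Ras pathway and tumour suppressors, 2 were past 2-fold higher: the kinase AKT1 at 233, 232 and 246 CPM in H460, against 32.6, 33.2 and 33.6 CPM in ABC-1 (log2 difference 2.82 ± 0.03, adjusted p = 2.10e-10), and NF1. NF1, a brake on Ras, was at 2.82 ± 0.06. PIK3CA (-2.35 ± 0.06) and STK11 (-1.28 ± 0.06) were among those past 2-fold lower.

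STK11 encodes the kinase LKB1, which restrains CREB coactivators through the SIK kinases. It was at 27.2, 26.2 and 28.6 CPM in H460, against 73.0, 66.1 and 63.0 CPM in ABC-1 (log2 difference -1.28 ± 0.06, adjusted p = 0.00317). Of 14 tested genes of that axis 7 were past 2-fold higher and 4 lower (median 1.08). CPS1, an enzyme of the urea cycle known to be high in LKB1-deficient lung cancers, was at 984, 1064 and 1037 CPM in H460, against 0.954, 0.687 and 0.521 CPM in ABC-1 (log2 difference 9.73 ± 0.11, adjusted p = 2.53e-11). The CREB targets NR4A1 (74.9 CPM in H460 and 6.19 CPM in ABC-1), NR4A3 (36.5 CPM in H460 and 0.874 CPM in ABC-1), CREM (64.1 CPM in H460 and 6.91 CPM in ABC-1) and PDE4D (465 CPM in H460 and 94.3 CPM in ABC-1) were higher. PTGS2 (4.79 CPM in H460 and 15.8 CPM in ABC-1), also a CREB target, and SIK3 (27.5 CPM in H460 and 84.8 CPM in ABC-1) were lower. CREB targets were thus found on both sides.

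The MYC genes differed in opposite directions. MYC was at 394, 401 and 408 CPM in H460, against 36.0, 37.6 and 40.0 CPM in ABC-1 (log2 difference 3.39 ± 0.04, adjusted p = 1.03e-10). MYCN was at 4.88, 0 and 0.0416 CPM in H460, against 115, 122 and 114 CPM in ABC-1 (log2 difference -6.70 ± 0.77, adjusted p = 1.66e-04). MYCN is among the genes high in DMSO replicate 1 of H460, and without that library its difference was -7.83 ± 0.09, adjusted p = 1.75e-10. MYCL had a row for ABC-1 only, at 20.0 ± 1.29 CPM. Of their antagonists MXD1 was past 2-fold lower in H460 (5.53 CPM in H460 and 54.1 CPM in ABC-1) and MXI1 higher (19.8 CPM in H460 and 4.50 CPM in ABC-1), and the common partner MAX was at 0.31 ± 0.05.

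CDKN2A, which encodes p16 and ARF, and its neighbour CDKN2B had a row for ABC-1 only, at 43.4 ± 0.681 and 28.0 ± 1.45 CPM. MTAP, their neighbour on chromosome 9, was at 104, 108 and 105 CPM in H460, against 26.4, 27.6 and 27.8 CPM in ABC-1 (log2 difference 1.93 ± 0.04, adjusted p = 3.28e-08). The inhibitor CDKN1A (66.8 CPM in H460 and 21.3 CPM in ABC-1) and cyclin CCNE1 (16.1 CPM in H460 and 4.62 CPM in ABC-1) were also past 2-fold higher. The inhibitor CDKN1B was lower (19.2 CPM in H460 and 68.9 CPM in ABC-1), and RB1 differed by 0.00 ± 0.03. In the BCL2 family BCL2 was higher (46.8 CPM in H460 and 13.0 CPM in ABC-1) and its relative BCL2L1 lower (42.5 CPM in H460 and 177 CPM in ABC-1), with BID (25.3 CPM in H460 and 162 CPM in ABC-1), BOK, BIK and HRK also lower. Proliferation lists held few calls. Of 20 tested DNA replication genes 2 were past 2-fold, POLA1 and MCM7, both higher, and of 20 mitotic genes 2 were, PLK1 higher (1.16 ± 0.03) and NDC80 lower (-1.69 ± 0.07). MCM7 and PLK1 were not past 2-fold when scaled by library totals. Of 22 histone genes 2 were past 2-fold, both lower, H2AC11 among them.

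Inflammatory genes tested in both lines went both ways. Of 16 tested genes of the NF-kB list 4 were past 2-fold higher and 3 lower, with a median of 0.01. Another 8 of the 30 listed had a row for H460 only and 0 for ABC-1 only, and these were not compared. CXCL8, a chemokine for neutrophils, was at 90.6, 89.9 and 98.0 CPM in H460, against 0.409, 0.481 and 0.372 CPM in ABC-1 (log2 difference 6.66 ± 0.09, adjusted p = 1.01e-10). LIF, a cytokine of the interleukin-6 family, had 3717 reads in H460 and 3 in ABC-1, a ratio of CPM of 759 (95% exact interval 260 to 3682, counting error only). TNFAIP3, a brake on NF-kB, averaged 72.6 CPM in H460 and 2.35 CPM in ABC-1. CXCL1 (144 ± 2.83 CPM), CXCL5 (121 ± 2.07 CPM) and IL6 (28.8 ± 1.02 CPM) had a row for H460 only. ICAM1, an adhesion receptor for leukocytes, was the exception at 0.976, 1.39 and 1.66 CPM in H460, against 217, 227 and 225 CPM in ABC-1 (log2 difference -6.94 ± 0.13, adjusted p = 4.01e-10), and BIRC3 (2.84 CPM in H460 and 21.8 CPM in ABC-1) and RELB (1.49 CPM in H460 and 5.35 CPM in ABC-1) were lower too. The subunits RELA (0.17 ± 0.04) and NFKB1 (0.76 ± 0.07) were not past 2-fold. Of 24 interferon-stimulated genes 7 were higher, OAS1 (126 CPM in H460 and 0.594 CPM in ABC-1) and ISG20 (37.1 CPM in H460 and 1.48 CPM in ABC-1) among them. The 3 lower ones were the factor STAT2 (9.16 CPM in H460 and 108 CPM in ABC-1), IFITM1 (1.06, 0.217 and 0.166 CPM in H460, against 21.9, 20.8 and 22.7 CPM in ABC-1) and the sensor IFIH1 (5.08 CPM in H460 and 17.9 CPM in ABC-1). HLA-C, a class I gene of antigen display, was lower (49.1 CPM in H460 and 381 CPM in ABC-1). Class I genes are polymorphic copies of each other, and reads of an allele unlike the reference may be lost.

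The YAP, WNT and TGF-beta lists held more genes lower in H460 than higher. In the YAP and TEAD list 10 of 19 tested genes were past 2-fold lower and 2 higher (median -1.34). The coactivator YAP1 averaged 122 ± 2.81 CPM in H460 and 396 ± 10.8 CPM in ABC-1. Also lower were TEAD3 (4.13 CPM in H460 and 129.8 CPM in ABC-1), AMOTL2 (45.6 CPM in H460 and 510.2 CPM in ABC-1) and ANKRD1 (1.87 CPM in H460 and 40.5 CPM in ABC-1). The paralogue of YAP1, WWTR1, was higher (129 ± 0.847 CPM in H460 and 45.6 ± 0.511 CPM in ABC-1). In the WNT list 12 of 23 were lower and 4 higher (median -1.20). The ligands WNT7B (1.19 CPM in H460 and 137 CPM in ABC-1), WNT10A (1.64, 0.0866 and 0.291 CPM in H460, against 148, 153 and 147 CPM in ABC-1) and WNT9A were lower, as were the pathway's own targets AXIN2 (0.416 CPM in H460 and 6.93 CPM in ABC-1) and RNF43 (0.829 CPM in H460 and 17.1 CPM in ABC-1). The receptors FZD8 (45.3 CPM in H460 and 0.491 CPM in ABC-1) and FZD4 (64.1 CPM in H460 and 6.13 CPM in ABC-1) were higher. In the TGF-beta list 9 of 24 were lower and 4 higher (median -0.76). The ligand TGFB2 (58.3 CPM in H460 and 0.632 CPM in ABC-1) was higher. The receptors TGFBR2 (10.5 CPM in H460 and 83.0 CPM in ABC-1) and TGFBR3 (24.1 CPM in H460 and 252 CPM in ABC-1), the inhibitor SMAD7 (3.28 CPM in H460 and 19.3 CPM in ABC-1) and the latency protein LTBP1 (2.12 CPM in H460 and 85.9 CPM in ABC-1) were lower. Of 9 tested integrins 3 were past 2-fold higher and 2 lower. ITGA5, the fibronectin receptor (33.3 CPM in H460 and 1.02 CPM in ABC-1), and ITGA6 (205 CPM in H460 and 23.2 CPM in ABC-1) were higher and ITGB4, the hemidesmosome chain (4.46 CPM in H460 and 131 CPM in ABC-1), lower. Of 13 tested proteases and inhibitors 8 were past 2-fold higher and 4 lower. The higher ones held the inhibitors SERPINE2 (515 CPM in H460 and 0.137 CPM in ABC-1) and TIMP1 (157 CPM in H460 and 9.61 CPM in ABC-1). They also held the serpins SERPINB9 (5.85 ± 0.09), SERPINB2 (5.05 ± 0.16), SERPINB6 (4.25 ± 0.10) and SERPINB5 (3.49 ± 0.08). TIMP2 (30.7 CPM in H460 and 339 CPM in ABC-1) and the cathepsin CTSV (1.14 CPM in H460 and 169 CPM in ABC-1) were lower. TIMP3, which overlaps SYN3, was lower too, at 0.754, 0.0866 and 0.125 CPM in H460, against 342, 335 and 347 CPM in ABC-1.

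In the glycolysis and hypoxia list 15 of 31 tested genes were past 2-fold higher in H460, 4 were lower and 12 were neither, with a median of 1.05. PFKP, the platelet form of phosphofructokinase, was at 232, 238 and 235 CPM in H460, against 1.09, 0.549 and 0.744 CPM in ABC-1 (log2 difference 7.53 ± 0.13, adjusted p = 3.55e-10). The muscle form PFKM averaged 161 CPM in H460 and 48.0 CPM in ABC-1, also higher, and the liver form PFKL was at -0.83 ± 0.03. Hexokinase HK2 (87.4 CPM in H460 and 10.0 CPM in ABC-1), the lactate exporter SLC16A3 (239.6 CPM in H460 and 19.2 CPM in ABC-1), LDHA (1718 CPM in H460 and 595 CPM in ABC-1) and GAPDH (6566 CPM in H460 and 2207 CPM in ABC-1) were higher. The glucose carriers differed in opposite directions, SLC2A1 being higher (149.5 CPM in H460 and 57.5 CPM in ABC-1) and SLC2A3 lower (99.0 CPM in H460 and 502 CPM in ABC-1). Of the oxygen-sensing factors EPAS1 was lower (117 CPM in H460 and 663 CPM in ABC-1) and HIF1A at 0.21 ± 0.06. In the serine and ATF4 list 10 of 25 were higher and 2 lower (median 1.02). PHGDH, the first step of serine synthesis (162 CPM in H460 and 39.9 CPM in ABC-1), ASNS (141 CPM in H460 and 38.7 CPM in ABC-1), TRIB3 (92.6 CPM in H460 and 21.9 CPM in ABC-1) and SLC1A4 (47.2 CPM in H460 and 6.40 CPM in ABC-1) were higher. PSPH, the last step, was lower (15.1 CPM in H460 and 48.7 CPM in ABC-1).

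Of 17 tested genes of fatty acid synthesis 5 were past 2-fold higher and 3 lower. The desaturases of polyunsaturated fatty acids FADS1 and FADS2, neighbours on chromosome 11, were higher. FADS1 was at 472, 501 and 499.8 CPM in H460, against 2.32, 2.95 and 2.68 CPM in ABC-1 (log2 difference 7.29 ± 0.07, adjusted p = 1.83e-11). FADS2 was at 264, 258 and 245 CPM in H460, against 0.954, 1.10 and 0.967 CPM in ABC-1 (log2 difference 7.41 ± 0.07, adjusted p = 1.12e-11). SCD, the desaturase of saturated fatty acids, was lower (1536 ± 25.3 CPM in H460 and 3457 ± 88.4 CPM in ABC-1), as was SCD5 (11.2 ± 0.807 CPM in H460 and 227 ± 5.46 CPM in ABC-1). ACSL4, which loads polyunsaturated fatty acids onto CoA, was higher (212 CPM in H460 and 24.2 CPM in ABC-1), and FASN was at -0.12 ± 0.04. Cholesterol genes differed little, with 1 of 24 past 2-fold higher (ABCG1, at 1.69 ± 0.19) and 3 lower (SC5D and HMGCS1 among them). ABCG1 was not past 2-fold without DMSO replicate 1 of H460 (1.58 ± 0.22, adjusted p = 0.0516). Nuclear genes of the respiratory chain had 3 of 28 higher and SDHA lower, and of 15 mitochondrially encoded RNAs only the ribosomal MT-RNR1 and MT-RNR2 were past 2-fold, both with libraries that differed widely within a line.

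**Figure D4:**
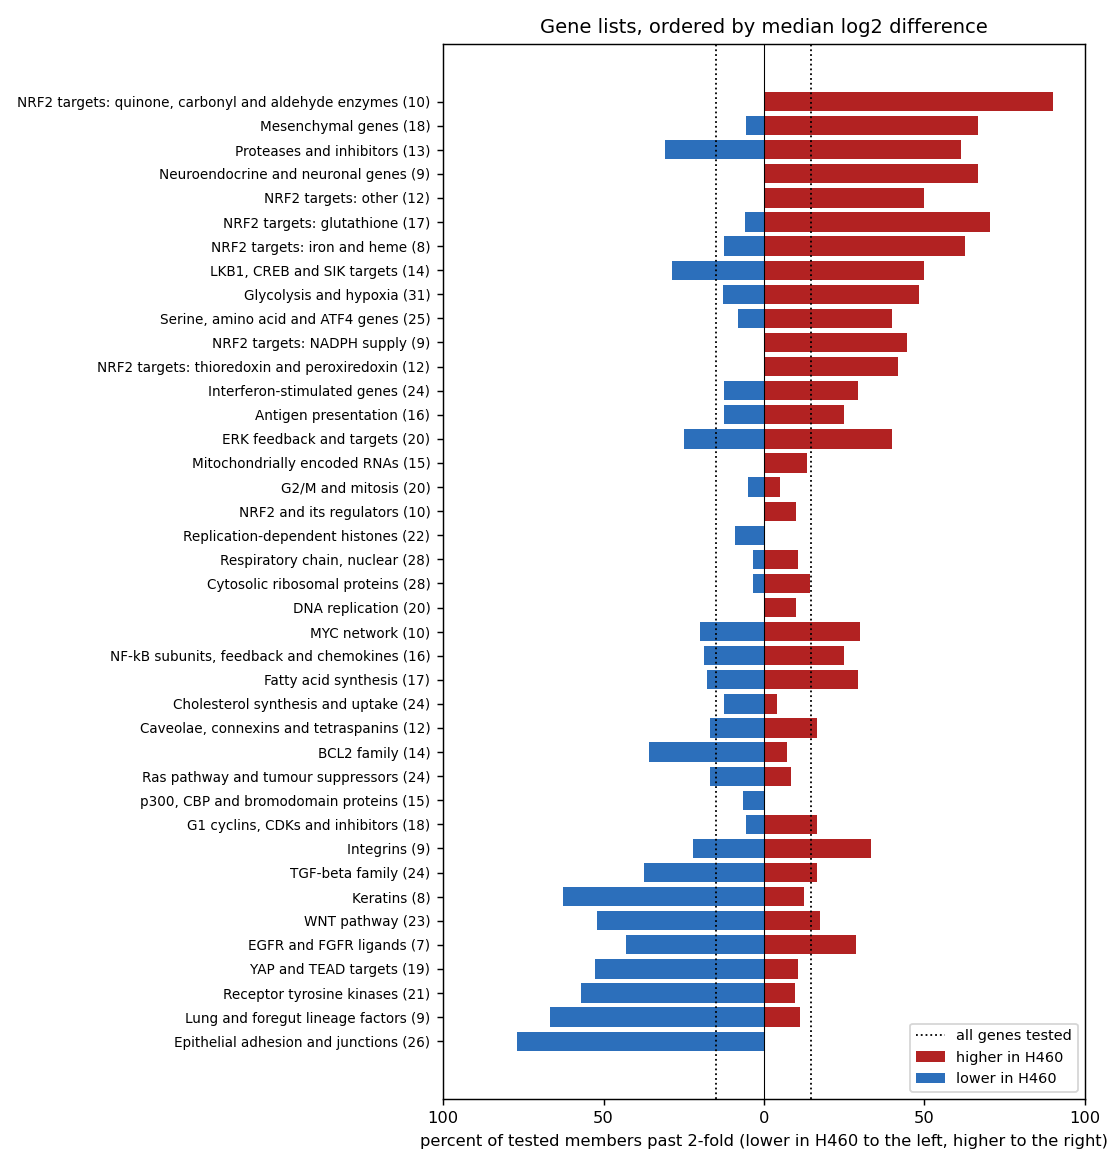
Percent of the tested members of each list past 2-fold, lower in H460 to the left in blue and higher in H460 to the right in red, for the lists drawn, each with 7 or more tested members, whose number is in brackets, ordered by median log2 difference. Dotted lines mark all genes tested, 15.1% lower and 14.6% higher. The NRF2 target list of quinone, carbonyl and aldehyde enzymes and the mesenchymal genes lie at the top, followed by proteases and neuronal genes. The other NRF2 target lists drawn lie below those. Epithelial genes, lineage factors and receptor kinases lie at the bottom.

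The 15 highest and 15 lowest protein-coding genes by the naming rule add members of other families. Beside those already given, the 15 highest held GDA, guanine deaminase (733 ± 13.1 CPM in H460 and 0.0929 ± 0.103 CPM in ABC-1), and SRGN, the proteoglycan serglycin (698 ± 22.9 CPM in H460 and 0.161 ± 0.101 CPM in ABC-1). MSN, moesin, which links membrane and actin, was at 730.3, 758 and 751 CPM in H460, against 0.409, 0.275 and 0 CPM in ABC-1. They also held COL5A2, a fibrillar collagen (1172 ± 43.0 CPM in H460 and 1.10 ± 0.129 CPM in ABC-1), and LAMA1, a laminin chain (326 ± 20.0 CPM in H460 and 0.136 ± 0.236 CPM in ABC-1). S100A6, a calcium-binding protein, was at 539.7, 561 and 582 CPM in H460, against 0.545, 0.275 and 0.149 CPM in ABC-1. The 15 lowest held PRSS35, a protease-like protein (0.200 ± 0.0829 CPM in H460 and 457 ± 10.7 CPM in ABC-1), UPK1B, a uroplakin (0.703 ± 0.0356 CPM in H460 and 483 ± 7.22 CPM in ABC-1), and CLIC3, a chloride channel protein (0.173 ± 0.0900 CPM in H460 and 265 ± 3.21 CPM in ABC-1). MGAT3, a glycosyltransferase of N-glycans, was at 1.15, 0 and 0 CPM in H460, against 245, 244 and 252 CPM in ABC-1, with a log2 difference of -8.37 ± 0.40, and of -8.96 ± 0.07, adjusted p = 4.54e-11 without DMSO replicate 1 of H460. Further down were VGLL3, a TEAD cofactor (0.549 ± 0.360 CPM in H460 and 256 ± 7.23 CPM in ABC-1), and THBS1, a thrombospondin (2.97 ± 1.67 CPM in H460 and 819 ± 29.7 CPM in ABC-1). The list also held FREM2, of basement membranes (0.902 ± 0.214 CPM in H460 and 299 ± 10.7 CPM in ABC-1), and AMOT, angiomotin (1.12 ± 0.251 CPM in H460 and 345 ± 11.5 CPM in ABC-1). TNS1, a tensin of focal adhesions, had 2 reads in H460 and 6999 in ABC-1, which puts ABC-1 at 5712 times H460 (95% exact interval 1581 to 47179, counting error only). In each of the 30 the libraries of the lines did not overlap, as the rule required.

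Rows present in one table only were not tested. For H460 there were 1895 such gene rows, 306 of them above 10 CPM, and for ABC-1 there were 2381, 159 of them above 10 CPM. The protein-coding ones at the highest CPM were GRAMD1B, a carrier of cholesterol (527 ± 16.5 CPM), COL8A1, a collagen (396 ± 19.8 CPM), and MCAM, an adhesion protein (345 ± 8.12 CPM), in H460. In ABC-1 they included PLEKHG4B (1181 ± 34.1 CPM), ST14 and CLDN6, a claudin of embryonic epithelia (342 ± 12.0 CPM). Each table also holds rows without a read in any of its libraries, so why a gene has no row is not given in the sources used here.

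Differences ran together along some chromosomes. Chromosome 19 had the lowest median log2 difference, -0.47 over 894 tested genes, with 24.3% past 2-fold lower and 5.59% higher, and chromosomes 8 and 3 followed at -0.43 each. The highest medians were those of chromosomes X (0.61), 14 (0.50) and 17 (0.46). In runs of 25 neighbouring tested genes the lowest median was -1.73, from DCUN1D1 to MAGEF1 (chr3:182938074-184712002). That run holds the export pump ABCC5, and 19 of its genes were past 2-fold lower and none higher. The highest median was 1.58, from TRAF3 to AHNAK2 (chr14:102777476-104978357), where 18 were higher and none lower, and which holds AKT1. These are descriptions of RNA; copy number was not measured.

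The line difference was measured again in the 6 libraries that received CCS1477, which share no library with the DMSO comparison but come from treated cells. There 3467 of 13313 tested genes (26%) were past 2-fold, 1720 higher (12.9%) and 1747 lower (13.1%). Of the 1927 genes higher in DMSO libraries 1296 (67.3%) were past 2-fold with the same sign, and of the 1987 lower 1428 (71.9%); none was past 2-fold with the opposite sign. Replicate 1 of H460 with CCS1477 stood apart from its replicates, and without it these counts were 1280 and 1465. Of the NRF2 targets 40 of 77 were past 2-fold higher and 3 lower (median 1.26), and of the epithelial genes 21 of 26 lower. In the CCS1477 libraries 18 of 20 mitotic genes and 15 of 21 histone genes were past 2-fold higher, against 1 of 20 and 0 of 22 in the DMSO libraries; for these lists the change with treatment was not tested.

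**Figure D5:**
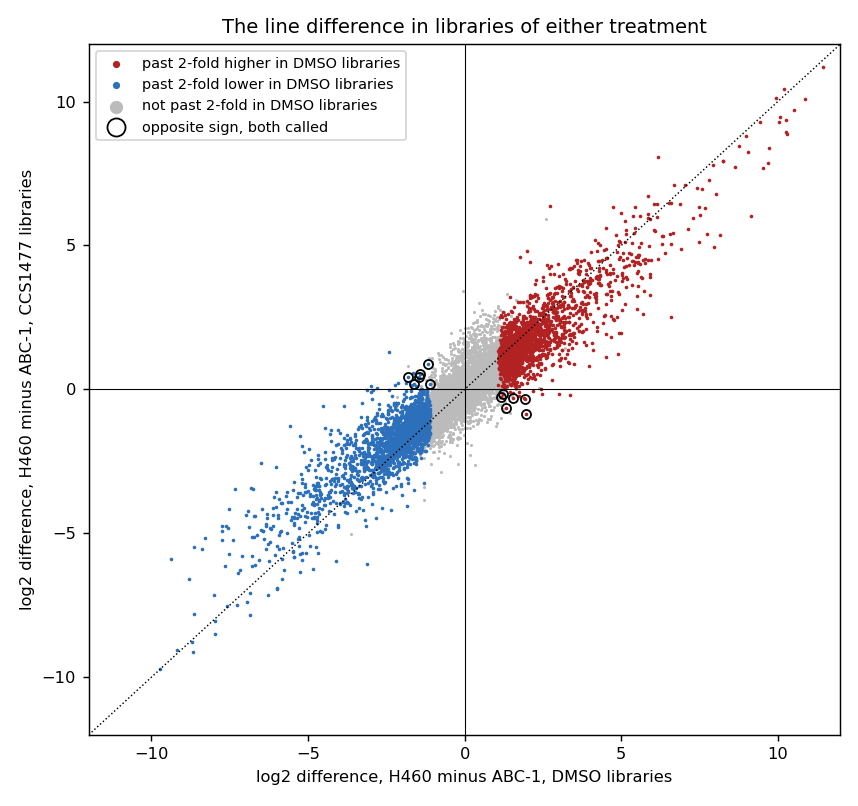
Log2 difference H460 minus ABC-1 in the CCS1477 libraries against the same in the DMSO libraries, 1 point a gene, with the line of equality dotted. Red and blue points are genes past 2-fold in the DMSO libraries, of which 67.3% and 71.9% were past 2-fold with the same sign under CCS1477, and open circles are the 12 genes called with opposite signs.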

How the data were processed

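RNA was measured by sequencing in H460 and ABC-1 cells after 24 h in DMSO, in 3 libraries each. The authors deposited 1 table per line of log2 values; from the values, each is the log2 of a scaled read number plus 4, which was undone to whole reads (each checked value within 0.1 of a whole number). The submitters' processing notes name GRCh38; the aligner and counter, and whether strand was used, are not given in these sources, so reads of overlapping antisense genes, such as those at VIM and UCHL1, cannot be told apart. CCS1477 doses in the other libraries are 5 µM per the labels of the samples, while the text of the series gives the unit as mM. Rows of transcripts were left out, and reads of the 14529 shared gene rows were scaled by trimmed means of M-values computed in R 4.3.3 and given as CPM. The 13169 genes with 1 CPM in at least 3 of 6 libraries were tested on log2(CPM + 0.5), which understates the change of low genes, with limma 3.58.1 (trended variance, the 6 libraries only, no covariate), against no difference and against 2-fold, with Benjamini-Hochberg adjustment over all genes. Summaries and figures used Python 3.11.15, pandas 2.3.3 and matplotlib 3.10.9. Intervals and floors cover counting error only.

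The fit was run on simulated data with a fixed spread and few changed genes, unlike these data, so that run gives no error rate for them. Named genes are the 15 highest and 15 lowest protein-coding genes past 2-fold with at least 5 CPM in the higher line and no overlap, all NRF2 genes, up to 8 genes of each other list by size of the difference, those behind counts of 5 or fewer, and NFE2L2, KEAP1, EP300, CREBBP, MYC, STK11 and CDKN2A. Some genes that these rules name are not reported here. Others were named after their values were seen: CALD1, CDH2, CLDN1, CLDN3, CLDN4, CLDN7, DSG2, DSP, TJP1, EPHA2, ERBB2, FGFR1, IGF1R, MET, PHLDA1, SPRY2, RB1, RELA, FASN, GAPDH, HIF1A, LDHA, PFKL, PFKM, SLC2A1, SNAI2, TIMP2, WWTR1 and YAP1, the genes at the ends of chromosome windows, and those chosen for standing apart in a library or for an opposite sign. The lines and the lists were chosen with earlier results of these data known. Alternatives were other scalings, limma-voom, other pseudocounts and filters, transcript rows, a replicate block, 12 libraries in 1 fit, the CCS1477 libraries, and each library left out.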

Additional observations from a re-analysis of the deposited data

Results flagged for a closer look

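For 12 genes past 2-fold in the DMSO libraries the line difference had the opposite sign in the CCS1477 libraries, where it was called against no difference, and the change itself was called in a limma fit of 12 libraries (adjusted p at most 6.29e-06 for each). They were chosen after their values were seen. Of these, 6 were higher in H460 in DMSO libraries. The log2 difference of OSGIN2 was 1.17 ± 0.05 in DMSO libraries and -0.26 in CCS1477 libraries, and that of ATXN1, the ataxin, 1.94 ± 0.07 and -0.35. TP53INP2, of autophagy, had 1.33 ± 0.10 and -0.65, KCTD7 1.54 ± 0.15 and -0.29, and MARCKSL1 1.24 ± 0.07 and -0.16. HBA1, an alpha globin with a near-identical copy, had 1.96 ± 0.25 and -0.84. The other 6 were lower in H460 in DMSO libraries. ANLN, anillin of the contractile ring, had -1.61 ± 0.02 in DMSO libraries and 0.20 in CCS1477 libraries, and GNE, of sialic acid synthesis, -1.18 ± 0.04 and 0.87. SOGA1 had -1.11 ± 0.04 and 0.20, FGD3 -1.43 ± 0.11 and 0.52, CCDC34 -1.46 ± 0.08 and 0.42, and ADGRB2 -1.81 ± 0.13 and 0.42. Of the 12, 10 were still opposite in sign and called without replicate 1 of H460 with CCS1477.

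Of the 51 genes that stood far above the other H460 libraries in DMSO replicate 1, 32 are not tested in the comparison, and the 4 of these at the highest level are given. Over the gene rows of the H460 table, H19 was at 69.6 CPM there and at 0.363 and 0.313 CPM in DMSO replicates 2 and 3. DLK1 was at 60.3 CPM, against 0.121 and 0.157 CPM. MGP, matrix Gla protein, was at 35.5 CPM, against 0.202 and 0.117 CPM, and SLC30A8, a zinc carrier of beta cells, at 24.5 CPM, against 0.0404 and 0.157 CPM.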

How the results depend on the processing

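The counts of genes past 2-fold stayed within 1.5 times their value under every alternative run. Those higher in H460 numbered 1469 (1 CPM required in all 6 libraries) to 2035 (limma-voom), and those lower 1559 (the same filter) to 2259 (scaling by library totals). With 1 library left out they numbered 1808 to 1912 and 1930 to 1989. Called against no difference, 5558 to 5710 were higher and 5375 to 5440 lower with 1 library left out. Of 277 genes named in the texts, the call past 2-fold was lost in 17 and gained in 3 of 2970 values from other settings of the same libraries, and lost in 18 and gained in 1 of 1662 values with 1 library left out. The calls lost with a library were those of ABCG1, without H460 replicate 1, and, without 1 or more of the libraries, those of KCTD7, MARCKSL1, PSMB9, SOGA1 and TP53INP2; NKX2-1 was gained without H460 replicate 1. A pseudocount of 2 CPM lost ABCG1, BIK, RELB and PSMB9 and 5 of the genes of opposite sign, and KRT8 was lost when 12 libraries shared 1 fit. In the CCS1477 libraries 46 of 552 values lost the call, EP300, STK11 and GCLC among them.

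With the replicate number as a block, 1902 genes were higher and 1981 lower past 2-fold. Replicates that share a number did not deviate together (correlations of -0.014, -0.038 and -0.046), so no pairing by number was seen in the values. Whether libraries of the same number were handled together cannot be told from these correlations.

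Scaling by library totals turned the log2 difference of TALDO1 to -0.0029 and the median of the NF-kB list to -0.13; that median was -0.21 with 1 CPM required in all 6 libraries, -0.00072 to 0.025 with 1 library left out (lowest without ABC-1 replicate 2), and -0.091 and -0.16 in the CCS1477 libraries with all of them and without H460 replicate 1. In the same order, the median of the ERK list was -0.19 and -0.17. Likewise the log2 differences that turned in CCS1477 libraries were, with all and without that replicate, 0.42 and 0.29 for ADGRB2, -0.41 and -0.40 for AGR2, 0.20 and 0.22 for ANLN, -0.35 and -0.35 for ATXN1, 0.42 and 0.44 for CCDC34, 0.86 and 0.81 for CYP4F3, 0.52 and 0.50 for FGD3, 0.87 and 0.90 for GNE, -0.84 and -0.96 for HBA1, -0.29 and -0.22 for KCTD7, -0.16 and -0.16 for MARCKSL1, 0.16 and 0.17 for NDC80, -0.26 and -0.23 for OSGIN2, 0.058 and 0.052 for PRDX6, 0.19 and 0.16 for RPIA, 0.20 and 0.20 for SOGA1 and -0.65 and -0.67 for TP53INP2. That of KRT19 was 0.0081 with all and that of MAFK -0.089 without it. These libraries were treated, and the causes were not tested.

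Depth limits genes near 1 CPM, most in ABC-1, and 1 line a group leaves line, depth and table inseparable.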

Other observations

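Further lists add genes of antigen display, position along the body axis and the cell surface. Of 16 tested genes of antigen presentation 4 were past 2-fold higher in H460 and 2 lower, against 14.6% and 15.1% of all genes: NLRC5, the activator of class I genes, was at 13.0, 13.4 and 13.0 CPM in H460, against 1.91, 0.824 and 0.670 CPM in ABC-1, the peptide transporter TAP1 averaged 56.6 CPM in H460 and 10.5 CPM in ABC-1 and the proteasome subunit PSMB9 10.9 CPM in H460 and 3.89 CPM in ABC-1, while TAPBP, which bridges TAP and class I proteins, averaged 58.4 CPM in H460 and 185 CPM in ABC-1. HLA-C was the other one lower. PSMB9 had a log2 difference of 1.39 ± 0.14 and was not past 2-fold when any 1 of 5 of the 6 libraries was left out, the exception being ABC-1 replicate 1.

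HOX genes, which set position along the body axis, had a row for H460 only in 11 of 21 genes of the HOXA and HOXB clusters and 8 of 18 of the HOXC and HOXD clusters, against 1 and 0 for ABC-1 only. Of those tested in both, HOXA3 (19.3 CPM in H460 and 2.72 CPM in ABC-1), HOXB7 (17.2 CPM in H460 and 4.58 CPM in ABC-1) and HOXC6 (4.88, 3.85 and 3.62 CPM in H460, against 0.136, 0 and 0.223 CPM in ABC-1) were past 2-fold higher. Among tetraspanins and connexins, CD81 (144 CPM in H460 and 46.3 CPM in ABC-1) and GJC1 (28.2 CPM in H460 and 4.69 CPM in ABC-1) were past 2-fold higher and CD9 (20.6 CPM in H460 and 320.2 CPM in ABC-1) and CD82 (0.217 CPM in H460 and 8.00 CPM in ABC-1) lower, and the surface protein TM4SF1 had a row for H460 only at 267 ± 5.64 CPM. The cancer-testis antigens, normally silent outside the germ line, also differed by line: MAGEA1 (123 ± 2.28 CPM) and MAGEB2 (93.1 ± 3.59 CPM) had a row for H460 only and XAGE2 (71.3 ± 5.94 CPM) for ABC-1 only, and PRAME was past 2-fold higher in H460 (38.5 CPM in H460 and 5.55 CPM in ABC-1). Of 28 ribosomal protein genes 4 were past 2-fold higher and 1 lower; the paralogue RPL22L1 averaged 152 CPM in H460 and 19.6 CPM in ABC-1 and RPL8 426 CPM in H460 and 1348 CPM in ABC-1.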
